A study of Mus musculus with 58 samples.

Results

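The genes described here encode the lysosome and its proton pump, with the cathepsins left aside. They were chosen by symbol, as every gene of the deposited table whose symbol starts with Atp6v and 31 listed lysosomal genes, which gave 49 of 25307 genes. The rule itself uses symbols and no expression value. By role, 20 belong to the proton pump: 9 are subunits of its membrane sector V0, 9 are subunits of its ATP-splitting sector V1 and 2 are accessory proteins. The other 29 are 7 membrane proteins, 4 activator and secreted precursor proteins, 8 glycosidases, 4 genes of lipid handling, 3 genes for a peptidase, a thioesterase and a nuclease-family enzyme, and 3 transcription factors.

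RNA was measured in Kupffer cells (KC, the resident macrophages of the liver), monocyte-derived macrophages (MoMF) and monocytes (Mo) from livers of 129SV mice. All groups share that strain, and the labels name no transgene, age or sex. Controls were the Sham6w group at 6 weeks. CBDL2w is the onset of cholestatic injury, 2 weeks after ligation of the common bile duct. CBDL6w is advanced cholestatic injury at 6 weeks. DSS is acute colitis, named for dextran sulfate sodium, and CBDL+DSS joins the advanced injury with acute colitis. The time of the DSS and CBDL+DSS groups is not in the labels. Controls exist only at 6 weeks, so the CBDL2w contrast mixes injury and time. With no time given, contrasts of DSS and CBDL+DSS may mix them too. There were 58 libraries, 4 in each of 13 groups and 3 in Sham6w MoMF and Sham6w Mo. The design text says that some replicates were pooled, and 9 libraries carry 2 or 3 joined replicate numbers. No label says that replicates were separate animals, so a p-value here measures the spread between these libraries, which may be technical. In cell preparations of this kind, fewer cells of a type and less RNA per cell cannot be told apart.

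Lysosomes are the acid compartment in which macrophages break down what they engulf. The vacuolar proton pump acidifies them: its V1 sector splits ATP in the cytosol, and its V0 sector carries protons across the membrane. Hydrolases work at that low pH, and several need helper proteins such as the saposins cut from prosaposin (Psap) or the GM2 activator (Gm2a). Transcription factors of the MiT/TFE family (Tfeb, Tfe3, Mitf) are known to bind E-box related motifs near many of these genes. Kupffer cells, which line the liver sinusoids and clear particles from portal blood, are known for a large lysosomal system.

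The E-box CACGTG and the related TCATGTG are the motifs to which MiT/TFE factors are known to bind. For that reason, sequence upstream of 4 members named in the results below is shown. Each is part of the 250 bases before the RefSeq start site (GRCm38.p6), read 5′ to 3′ on the gene's strand, without bases that GENCODE M21 annotates as UTR. Capitals mark CACGTG, or TCATGTG read on either strand (CACATGA in reverse). Lamp1 (chr8:13158911-13159160, plus strand, 250 bases) holds 4 E-boxes, the first letters of which lie 61, 45, 28 and 15 bases before the start. Atp6v1a (chr16:44139306-44139461, minus strand, 156 bases) holds 1, at 131 bases, inside the palindrome TCACGTGA. The Atp6v1a stretch lies inside the annotated span of the gene (44085402-44139705), so its E-box is downstream of that annotated start. Grn (chr11:102430257-102430314, plus strand, 58 bases) holds CACATGA at 210 bases, and the 250 bases before Creg1 (chr1:165763508-165763745, plus strand, 238 bases) hold neither motif.

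Lamp1: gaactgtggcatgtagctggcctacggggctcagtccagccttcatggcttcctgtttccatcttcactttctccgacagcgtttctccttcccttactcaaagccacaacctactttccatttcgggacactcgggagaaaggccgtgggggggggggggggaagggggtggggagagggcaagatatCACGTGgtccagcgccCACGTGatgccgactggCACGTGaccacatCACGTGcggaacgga
Atp6v1a: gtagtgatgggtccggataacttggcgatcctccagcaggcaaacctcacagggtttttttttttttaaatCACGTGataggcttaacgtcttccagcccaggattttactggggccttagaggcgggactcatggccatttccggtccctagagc
Grn: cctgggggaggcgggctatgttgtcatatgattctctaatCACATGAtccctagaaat
Creg1: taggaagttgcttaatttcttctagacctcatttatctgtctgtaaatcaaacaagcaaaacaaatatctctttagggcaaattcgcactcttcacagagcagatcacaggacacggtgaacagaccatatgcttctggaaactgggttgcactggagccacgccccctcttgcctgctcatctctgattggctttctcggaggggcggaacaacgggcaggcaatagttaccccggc

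Promoter windows of 300 bases (250 before and 50 after the start) were matched for 41 of the 49 members. CACGTG, which reads the same on both strands, stood in the windows of 10 of these 41 members (24.4%), and in those of 8.09% of the 27025 genes with a window (7.15% of 32851 windows). The 10 are Atp6v0b, Atp6v0d1, Atp6v0e, Atp6v1a, Gaa, Gla, Glb1, Lamp1, Mcoln1 and Naglu. TCACGTGA, which contains CACGTG, stood in 5 members (12.2%) and in 1.12% of genes. TCATGTG on either strand stood in 6 members (14.6%: Atp6v0c, Gla, Grn, Ppt1, Scarb2 and Tpp1) and in 4.31% of genes. A match describes these letters only and is not a measured binding site.

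Recovered read totals ran from 228741 to 521954 in KC, 118687 to 461071 in MoMF and 235531 to 377725 in Mo. The library MoMF Sham6w replicate 1+2+5 held 118687 reads, against 272554 and 294183 in the other Sham6w MoMF libraries. Its size factor was 0.4038, so a value under 10 normalized counts in this library rests on few reads. Changes from Sham6w in MoMF given below for Atp6v1a, Hexa and Tfe3 use such a value. Its share of reads from 8 Kupffer cell markers was 0.0624%, against 0.252 and 0.276% in replicates 3 and 4+6. In MoMF that share ran from 0.016 to 0.046% at CBDL2w and 0.028 to 0.172% at CBDL6w. It was 0.023 to 0.043% in DSS and 0.022 to 0.084% in CBDL+DSS. By this share, Sham6w replicates 3 and 4+6 lay above all other MoMF libraries, and replicate 1+2+5 did not. Calls against Sham6w in MoMF that ended without replicate 1+2+5 are marked below. Some share a range of adjusted p with other left-out libraries, and log2 differences without it are not given. The Kupffer cell markers held 0.713 to 0.798% of the reads in Sham6w KC and 0.0329 to 0.0862% in Sham6w Mo, and the mean of Clec4f, the lectin that defines Kupffer cells, was above 0 in every group and 453.3 normalized counts in Sham6w KC. The 8 monocyte markers held 0.313 to 0.434% in Sham6w Mo and 0.0353 to 0.0645% in Sham6w KC.

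Together the 49 members made up 1.35% of the reads in Sham6w KC (1.23 to 1.49%), 0.930% in Sham6w MoMF (0.880 to 0.980%) and 1.05% in Sham6w Mo (0.960 to 1.12%). In KC the share was lower in DSS (0.974 to 1.10%), with no overlap with Sham6w, and ran from 1.39 to 1.76% in CBDL+DSS. In MoMF every injury group lay above every Sham6w library, with 1.14 to 1.29% at CBDL2w, 1.11 to 1.19% at CBDL6w, 1.07 to 1.31% in DSS and 1.39 to 1.54% in CBDL+DSS. In Mo CBDL+DSS (1.29 to 1.43%) lay above Sham6w. A summed share weighs most the genes with most reads, such as Psap, and does not show a rise across the set. The 20 pump genes held 0.241, 0.182 and 0.174% in Sham6w KC, MoMF and Mo, and 0.278, 0.228 and 0.222% in CBDL+DSS. In the single injuries of MoMF their mean share was not above Sham6w, with 0.166% at CBDL2w, 0.169% at CBDL6w and 0.178% in DSS. Changes below are limma log2 differences of normalized count + 1, with their SE, and a member passed at an adjusted p under 0.05 over all genes tested, two-sided. Of the 49 members, 41 reached the minimum level for testing in KC, 41 in MoMF and 39 in Mo. The 4 injury groups of a cell type share the same Sham6w libraries, so their changes are set side by side and not correlated. Alternatives were tried 1 at a time: a pseudocount raised to 5, no filter on low values, equal totals (values scaled to the same sum), edgeR or DESeq2 on the recovered reads, a replicate block, libraries with single replicate numbers only (which leaves 1 Sham6w library in MoMF and in Mo, assumed to vary like the other groups), and each library left out in turn. Where a call or count is said to end or become something, each setting named did so by itself. A called member was picked by the test on the same libraries, so groups that do not overlap add no support to its call.

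In Kupffer cells, few lysosomal genes passed the test after bile duct ligation. At both times 1 fell, Creg1, a secreted glycoprotein found in lysosomes. Gusb, the beta-glucuronidase, rose at 2 weeks, and Atp6v1a, the catalytic V1 subunit, fell at 6 weeks. At CBDL2w, 1 of 41 members rose and 1 fell, where 1.09% of the 6159 genes tested rose and 1.62% fell. At CBDL6w none rose and 2 fell, where 1.22% of genes rose and 2.03% fell. The median change of the members was -0.17 at CBDL2w and -0.22 at CBDL6w, beside -0.03 and -0.06 over all genes tested. Leaving out 1 library moved the number that passed at CBDL2w to 1 without Sham6w replicate 1 or 2 or CBDL2w replicate 1 or 4. At CBDL6w it became 1 without CBDL6w replicate 4 or Sham6w replicate 3 or 4.

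Creg1 stood at 421, 458, 493 and 579 normalized counts in the 4 Sham6w KC libraries, at 238, 254, 278 and 315 at CBDL2w and at 233, 246, 316 and 349 at CBDL6w. All ligated libraries lay below all controls. The fall was -0.84 ± 0.15 (adjusted p = 0.00215) at CBDL2w and -0.78 ± 0.15 (adjusted p = 0.00419) at CBDL6w. Atp6v1a stood at 80.9, 83.1, 94.6 and 95.3 in Sham6w and 48.0, 50.2, 53.8 and 62.4 at CBDL6w, without overlap. Its fall at CBDL6w was -0.72 ± 0.17 (adjusted p = 0.0234), and the call ended with no filter on low values (adjusted p 0.117) and without KC CBDL6w replicate 4 or KC Sham6w replicate 3 or 4 (adjusted p 0.0666 to 0.0734). At CBDL2w Atp6v1a overlapped the controls (68.7, 79.3, 86.0 and 95.0). Gusb stood at 17.0, 17.0, 20.9 and 23.2 in Sham6w and 29.2, 34.3, 42.5 and 47.9 at CBDL2w, again without overlap. The rise was 0.93 ± 0.22 (adjusted p = 0.02), and the call ended with no filter on low values (adjusted p 0.123) and without KC Sham6w replicate 1 or 2 or KC CBDL2w replicate 1 or 4 (adjusted p 0.0537 to 0.0766). The Kupffer cell markers moved in the same libraries, from 0.713 to 0.798% of the reads in Sham6w to 0.278 to 0.420% at CBDL2w and 0.193 to 0.412% at CBDL6w. Of these 8 markers, 5 fell at CBDL2w and 4 at CBDL6w, and the monocyte markers held 0.175 to 0.208% and 0.143 to 0.248%, against 0.0353 to 0.0645% in Sham6w. Their part in the Creg1 and Atp6v1a falls was not tested.

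CBDL2w and CBDL6w differed in no member of KC by limma or edgeR, with 2 members at an unadjusted p under 0.05, and 0.00% of all genes passed upward and 0.00% downward. DESeq2 also called none of the members.

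In acute colitis more of the set was lower in Kupffer cells. Of 41 members tested, 5 fell, where 4.55% of genes fell, and 1 rose, where 3.34% rose. The members that fell were Creg1, the acid lipase Lipa, the cholesterol carrier Npc2, the peptidase Tpp1 and Pld3, a phospholipase D family nuclease. Gusb rose. No member of the proton pump passed in either direction. The median change was -0.42 over the members and -0.07 over all genes. The 6 that passed became 1 without Sham6w replicate 2 or DSS replicate 2, 2 without Sham6w replicate 4 or DSS replicate 3 and 3 without Sham6w replicate 1 or 3 or DSS replicate 4.

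Among the secreted and precursor proteins, Creg1 stood at 196, 219, 243 and 244 normalized counts in DSS KC, all below the Sham6w range given above (-1.10 ± 0.15, adjusted p = 0.000116). Of the lipid genes, Lipa, which frees cholesterol and fatty acids from lipoproteins, stood at 56.4, 62.5, 73.4 and 109.5 in Sham6w and 12.5, 26.5, 46.5 and 50.6 in DSS. The groups did not overlap, and the fall was -1.26 ± 0.33 (adjusted p = 0.0207). Its call ended without KC Sham6w replicate 2 or 4 or KC DSS replicate 2 or 3 (adjusted p 0.0518 to 0.0833). Npc2, which binds cholesterol inside the lysosome, stood at 135, 150.1, 160.2 and 172 and 94.8, 98.8, 109.8 and 133, also without overlap. Its fall of -0.50 ± 0.15 (adjusted p = 0.0435) did not pass with no filter on low values, equal totals, edgeR and single replicate numbers only (adjusted p 0.0523 to 0.172) and without KC Sham6w replicate 1, 2 or 4 or KC CBDL2w replicate 1 or KC DSS replicate 1, 2 or 3 or KC CBDL+DSS replicate 1+3 (adjusted p 0.0511 to 0.127).

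Of the peptidase and nuclease genes, Tpp1, the tripeptidyl peptidase, stood at 86.3, 99.4, 108 and 119 normalized counts in Sham6w and 51.6, 61.3, 62.6 and 77.8 in DSS. All DSS libraries lay below all controls (-0.70 ± 0.18, adjusted p = 0.0213), and the call ended with no filter on low values (adjusted p 0.0946) and without KC Sham6w replicate 1, 2 or 3 or KC DSS replicate 2 or 4 (adjusted p 0.0516 to 0.0639). Pld3 stood at 13.9, 19.2, 20.9 and 24.1 and 8.23, 8.76, 8.93 and 13.4 (-0.92 ± 0.28, adjusted p = 0.0475). The groups did not overlap, but the call ended in every alternative: with the pseudocount at 5, no filter on low values, equal totals, edgeR, DESeq2, a replicate block and single replicate numbers only (adjusted p 0.0526 to 0.18) and without any of 13 of the 20 libraries in turn (adjusted p 0.0511 to 0.12). Gusb rose to 28.8, 30.4, 31.8 and 40.3 (0.72 ± 0.22, adjusted p = 0.0474), and did not pass with the pseudocount at 5, no filter on low values, edgeR, a replicate block and single replicate numbers only (adjusted p 0.0526 to 0.229) and without any of 14 of the 20 libraries in turn (adjusted p 0.0513 to 0.126). The 7 tissue macrophage markers, such as Apoe and the C1q chains, held 0.591 to 0.701% of the reads in DSS and 1.16 to 1.49% in Sham6w KC, and 6 of the 7 fell. The Kupffer cell markers held 0.524 to 0.693%, below the Sham6w range given above, and 4 of 8 fell. Mitochondrial reads made up 3.49 to 5.20% in DSS and 6.46 to 9.01% in Sham6w, and ribosomal protein reads 11.4 to 13.1 and 7.50 to 8.43%. No marker of either list had a mean of 0, and the part of these shifts in the changes of the members was not tested.

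With colitis on top of ligation, Gusb and Pld3 were higher in Kupffer cells than in the controls, and Creg1 was lower. Against Sham6w, 2 of 41 members rose (1.61% of genes) and 1 fell (1.70%), and the median change was 0.15, beside 0.02 over all genes. The number that passed was 1 without Sham6w replicate 2 or CBDL+DSS replicate 6. Gusb stood at 34.2, 39.9, 49.5 and 53.6 normalized counts, above all controls (1.13 ± 0.22, adjusted p = 0.00353). Pld3 stood at 36.5, 39.0, 54.0 and 62.7, also above all controls (1.25 ± 0.28, adjusted p = 0.0124), and its call ended with no filter on low values (adjusted p 0.0546) and without KC Sham6w replicate 2 or KC CBDL+DSS replicate 6 (adjusted p 0.0571 to 0.0694). Creg1 was lower than in the controls at 293, 323, 340.3 and 378 (-0.54 ± 0.15, adjusted p = 0.049). That call ended with no filter on low values, equal totals and single replicate numbers only (adjusted p 0.0794 to 0.303) and without any of 15 of the 20 libraries in turn (adjusted p 0.0506 to 0.156). Against CBDL6w, 1 of 41 members rose (0.942% of genes) and none fell (0.796%). It was Atp6v1a, at 73.9, 106, 113 and 116 against the CBDL6w values above, with no overlap (0.90 ± 0.17, adjusted p = 0.00964), and the call ended with no filter on low values (adjusted p 0.0549). The number that passed against CBDL6w was 2 without CBDL6w replicate 4, CBDL2w replicate 2 or CBDL+DSS replicate 2. Kupffer cell markers made up 0.466 to 0.605% of CBDL+DSS reads, and 3 of 8 were higher than in CBDL6w. Their part was not tested.

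**Figure D1:**
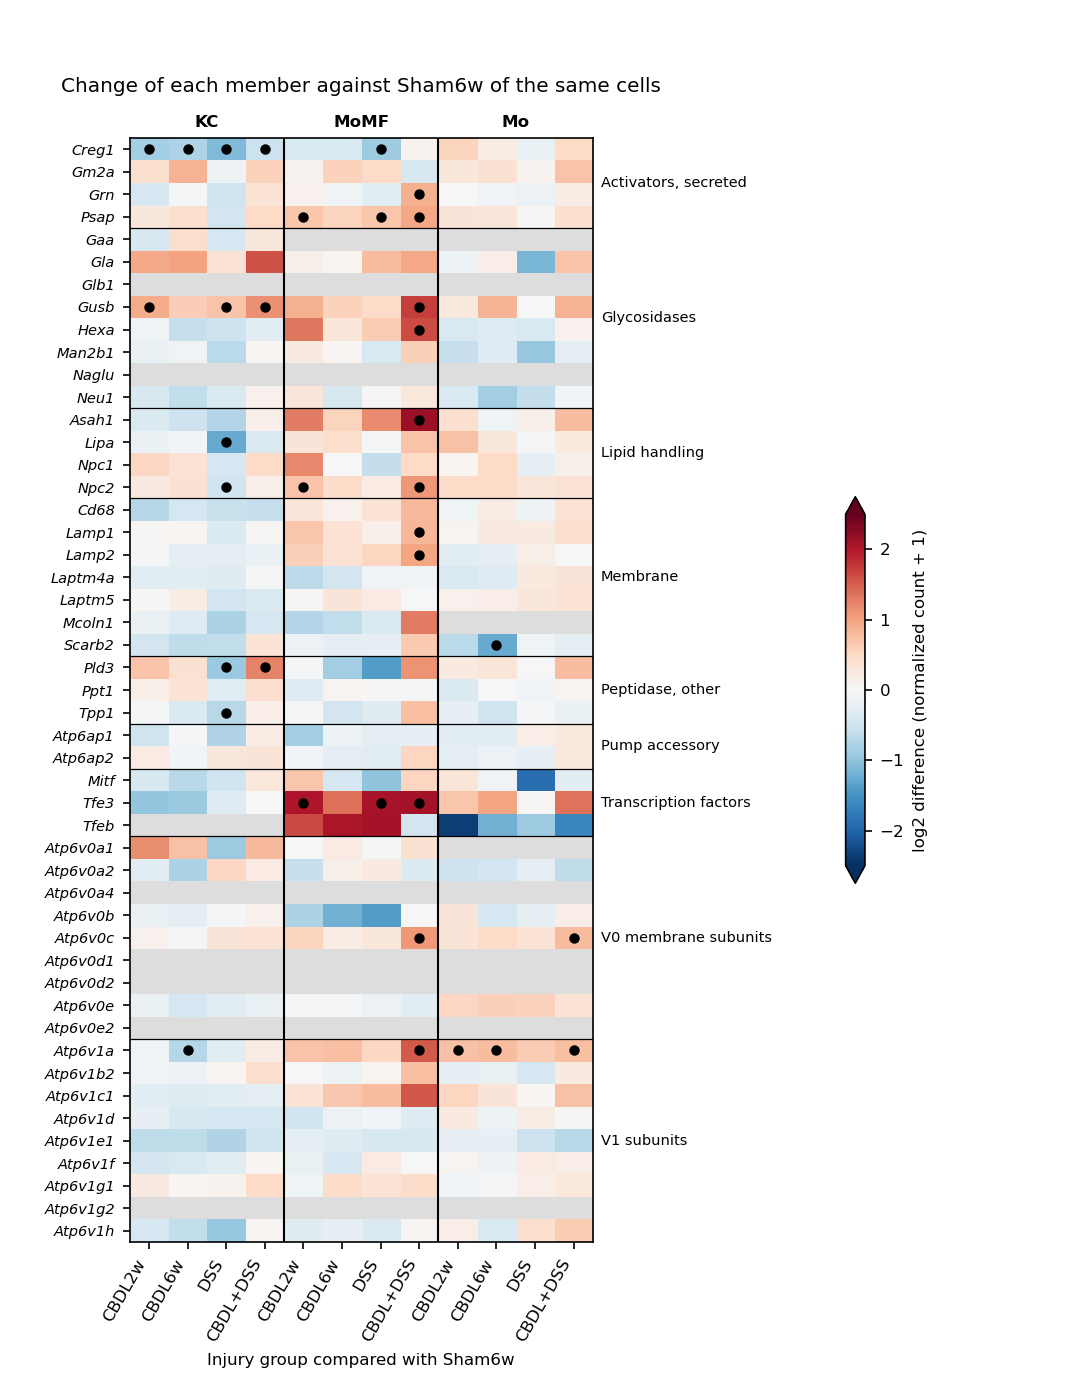
Heat map of the limma log2 difference from Sham6w for the 49 members (rows, by role) in each injury group of KC, MoMF and Mo (12 columns); a black dot marks an adjusted p under 0.05 and grey a member below the level for testing. The columns with most dots are CBDL+DSS MoMF (11 higher) and DSS KC (5 lower and 1 higher). Each other column holds 0 to 3 dots, and most cells carry none.

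In monocyte-derived macrophages the members that passed were mostly higher, and most of them in the combined injury. In CBDL+DSS, 11 of 41 members were higher than in Sham6w and none was lower, where 4.61% of the 6079 genes tested were higher and 5.20% lower. The 11 covered the pump (Atp6v0c, Atp6v1a), the membrane (Lamp1, Lamp2), precursor proteins (Psap, Grn), glycosidases (Gusb, Hexa), lipid genes (Asah1, Npc2) and a transcription factor (Tfe3). The median change of the members was 0.60, beside 0.08 over all genes. All 11 had no overlap between the CBDL+DSS and Sham6w libraries. They were picked by the test on these same libraries, so this adds no support to it. The share of all genes without overlap was not counted. Of 41 members, 6 without Sham6w replicate 1+2+5 passed.

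Of the pump genes, Atp6v0c, the proton-carrying ring subunit of V0, stood at 47.8, 59.4 and 69.7 normalized counts in the 3 Sham6w MoMF libraries and 108, 128, 130.3 and 137 in CBDL+DSS (1.09 ± 0.23, adjusted p = 0.00394). It has 2 named processed pseudogenes, between which reads could be split. Atp6v1a stood at 7.43, 38.0 and 49.1 in Sham6w and 61.8, 66.2, 78.6 and 86.8 in CBDL+DSS (1.53 ± 0.42, adjusted p = 0.0239). The lowest of those controls is replicate 1+2+5, and the Atp6v1a call ended with edgeR and single replicate numbers only (adjusted p 0.0638 to 0.371) and without MoMF Sham6w replicate 1+2+5 or MoMF CBDL+DSS replicate 2 or 4+5 (adjusted p 0.0509 to 0.178).

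Of the membrane proteins, Lamp1, a main glycoprotein of the lysosomal membrane, stood at 52.0, 54.3 and 65.8 normalized counts in Sham6w and 93.0, 98.4, 109 and 112 in CBDL+DSS (0.84 ± 0.21, adjusted p = 0.0151). The call ended with no filter on low values and single replicate numbers only (adjusted p 0.0915 to 0.157) and without MoMF Sham6w replicate 1+2+5 (adjusted p 0.0521). Lamp2, its relative that also serves in chaperone-mediated autophagy, stood at 28.5, 30.4 and 39.6 and 56.9, 56.98, 61.1 and 92.0 (0.99 ± 0.28, adjusted p = 0.0284), and its call ended with no filter on low values and single replicate numbers only (adjusted p 0.102 to 0.22) and without MoMF Sham6w replicate 3 or 4+6 or MoMF CBDL+DSS replicate 3 (adjusted p 0.0536 to 0.0905). The groups did not overlap for either gene, and 1 CBDL+DSS library, replicate 3, stood above the others for Lamp2. Cd68 stood at 22.3, 36.3 and 38.0 and 46.5, 54.2, 57.3 and 68.2, also without overlap, but did not pass (0.82 ± 0.31, adjusted p = 0.094). Laptm5 overlapped, at 137, 199 and 287 and 184, 186, 209.5 and 226.

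Psap, the precursor of the saposins, stood at 971, 1078 and 1141 normalized counts in Sham6w MoMF and 1944, 2032, 2129 and 2195 in CBDL+DSS (0.97 ± 0.17, adjusted p = 0.000671). Grn, the progranulin precursor, stood at 74.3, 85.4 and 129 and 151, 182, 183 and 184 (0.89 ± 0.25, adjusted p = 0.0256), and its call ended with no filter on low values and single replicate numbers only (adjusted p 0.0766 to 0.659) and without MoMF Sham6w replicate 1+2+5 or 4+6 or MoMF CBDL+DSS replicate 1, 2 or 4+5 (adjusted p 0.0546 to 0.119). The groups did not overlap for either gene. Of the glycosidases, Gusb stood at 6.52, 13.8 and 19.8 and 28.1, 42.2, 48.7 and 56.98 (1.72 ± 0.36, adjusted p = 0.00374). Hexa, the alpha chain of beta-hexosaminidase, stood at 4.95, 12.8 and 13.0 and 25.7, 27.5, 29.7 and 46.7 (1.63 ± 0.38, adjusted p = 0.00707), and its call ended with single replicate numbers only (adjusted p 0.283) and without MoMF Sham6w replicate 1+2+5 (adjusted p 0.0542).

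Among lipid genes, Npc2 stood at 90.2, 92.3 and 102 normalized counts in Sham6w MoMF and 187, 188, 212 and 216 in CBDL+DSS (1.07 ± 0.20, adjusted p = 0.0012). Asah1, the acid ceramidase, stood at 5.89, 7.43 and 7.60 and 24.1, 32.9, 39.5 and 41.6 (2.13 ± 0.53, adjusted p = 0.0136), and its call ended with single replicate numbers only (adjusted p 0.29). Lipa, which fell in DSS KC, overlapped here at 12.4, 23.9 and 38.3 and 23.2, 31.0, 51.2 and 53.3. Tfe3, of the MiT/TFE family, stood at 2.48, 10.8 and 10.9 and 25.7, 30.1, 32.2 and 44.1 (2.09 ± 0.48, adjusted p = 0.00675). The 2.48 is from replicate 1+2+5 and, at its size factor of 0.4038, rests on few reads. The Tfe3 call ended with single replicate numbers only (adjusted p 0.369) and without MoMF Sham6w replicate 1+2+5 (adjusted p 0.0589). The tissue macrophage markers held 0.327 to 0.491% of the reads in Sham6w MoMF and 1.07 to 1.46% in CBDL+DSS, and the Kupffer cell markers 0.0624 to 0.276% and 0.0223 to 0.0837%. No marker of either list had a mean of 0, and their part in the 11 rises was not tested.

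The single injuries moved fewer members of MoMF. At CBDL2w, 3 of 41 rose (1.69% of genes) and none fell (1.37%). In DSS, 2 rose (1.27%) and 1 fell (0.806%). At CBDL6w no member rose (0.411% of genes) or fell (0.806%) by limma or edgeR, with 5 at an unadjusted p under 0.05 and 1 call by DESeq2. The medians of the members were 0.09, 0.03 and 0.06 in that order, beside 0.03, 0.06 and 0.02 over all genes. At CBDL2w the number that passed became 0 without Sham6w replicate 1+2+5 and 1 without CBDL2w replicate 1, 3 or 4. In DSS it became 0 without DSS replicate 3 or 5+6 and 1 without Sham6w replicate 1+2+5 or DSS replicate 2, and at CBDL6w 1 without CBDL6w replicate 2.

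Psap stood at 1553, 1654, 1795 and 1897 normalized counts at CBDL2w and 1486, 1568, 1693 and 2170 in DSS, all above Sham6w. The rises were 0.70 ± 0.17 (adjusted p = 0.0207) and 0.69 ± 0.17 (adjusted p = 0.0327). The first call ended with single replicate numbers only (adjusted p 0.201) and without MoMF Sham6w replicate 1+2+5 or MoMF CBDL2w replicate 1 or 4 (adjusted p 0.0523 to 0.0705). The call in DSS ended with single replicate numbers only (adjusted p 0.431) and without MoMF Sham6w replicate 1+2+5 or MoMF DSS replicate 2, 3 or 5+6 (adjusted p 0.0538 to 0.11). Tfe3 stood at 22.9, 25.2, 32.8 and 49.0 and 22.2, 29.1, 37.8 and 41.6 in these groups, again above all controls (2.03 ± 0.48, adjusted p = 0.0179, and 2.06 ± 0.48, adjusted p = 0.0258). As above, the lowest Tfe3 control rests on few reads. At CBDL2w its call ended with single replicate numbers only (adjusted p 0.437) and without MoMF Sham6w replicate 1+2+5 or MoMF CBDL2w replicate 3 (adjusted p 0.0704 to 0.109). In DSS it ended with edgeR and single replicate numbers only (adjusted p 0.0514 to 0.539) and without MoMF Sham6w replicate 1+2+5 or MoMF DSS replicate 3 or 5+6 (adjusted p 0.075 to 0.117).

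Npc2 stood at 133, 152, 168 and 175 normalized counts at CBDL2w, above all controls (0.72 ± 0.20, adjusted p = 0.046), and did not pass with no filter on low values and single replicate numbers only (adjusted p 0.164 to 0.25) and without any of 15 of the 19 libraries in turn (adjusted p 0.0517 to 0.117). Creg1 was the member that fell in DSS, from 84.2, 111 and 177 to 49.5, 60.9, 66.5 and 79.5 (-0.89 ± 0.23, adjusted p = 0.0405). The groups did not overlap, but the call ended with no filter on low values and single replicate numbers only (adjusted p 0.11 to 0.381) and without any of 10 of the 19 libraries in turn (adjusted p 0.0504 to 0.14). The Kupffer cell markers held 0.0230 to 0.0427% of the reads in DSS MoMF, below the 0.0624 to 0.276% of Sham6w MoMF. The 14 endothelial markers held 0.151 to 0.165% in DSS MoMF, above the 0.0312 to 0.0576% of Sham6w MoMF. Their part in these changes was not tested.

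Within MoMF, CBDL+DSS was also compared with CBDL6w. Of 41 members, 4 were higher (2.09% of genes) and 1 was lower (2.07%), with a median of 0.61 over the members and 0.03 over all genes. The 5 that passed became 1 without CBDL6w replicate 3, 2 without CBDL6w replicate 1 or 4, 3 without CBDL+DSS replicate 1, 2 or 3, 9 without CBDL6w replicate 2 and 10 without Sham6w replicate 1+2+5. Tpp1 stood at 19.2, 41.7, 42.1 and 45.2 normalized counts in CBDL6w and 62.5, 68.2, 93.7 and 116 in CBDL+DSS (1.21 ± 0.28, adjusted p = 0.0137), and its call ended without MoMF CBDL6w replicate 3 or MoMF CBDL+DSS replicate 3 (adjusted p 0.0575 to 0.0581). Grn stood at 71.1, 83.0, 92.7 and 110.1 in CBDL6w (0.98 ± 0.23, adjusted p = 0.0155), and its call ended with no filter on low values (adjusted p 0.052) and without MoMF CBDL6w replicate 3 or 4 (adjusted p 0.0513 to 0.0541). For both genes all CBDL+DSS libraries lay above all CBDL6w libraries. Atp6v0c stood at 51.5, 55.8, 82.2 and 84.3 in CBDL6w (0.90 ± 0.21, adjusted p = 0.0171), and the call ended with no filter on low values (adjusted p 0.0891) and without MoMF CBDL6w replicate 1 or MoMF CBDL+DSS replicate 1 or 2 (adjusted p 0.0501 to 0.0703). Hexa stood at 7.73, 12.8, 13.3 and 15.1 (1.33 ± 0.35, adjusted p = 0.0302), and its call ended with no filter on low values (adjusted p 0.117) and without MoMF CBDL6w replicate 1, 3 or 4 or MoMF CBDL+DSS replicate 2, 3 or 4+5 (adjusted p 0.0516 to 0.104). Neither gene's groups overlapped. Gm2a was the member that was lower, at 27.6, 39.3, 40.8 and 61.8 against 58.8, 84.1, 89.4 and 97.6 (-0.98 ± 0.26, adjusted p = 0.0355). Its groups overlapped, and the call ended with no filter on low values (adjusted p 0.117) and without MoMF CBDL6w replicate 1, 3 or 4 or MoMF CBDL+DSS replicate 1, 2 or 4+5 (adjusted p 0.0769 to 0.122). CBDL2w and CBDL6w differed in no member by limma, edgeR or DESeq2, with 3 at an unadjusted p under 0.05, where 0.0823% of genes were higher and 0.00% lower.

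**Figure D2:**
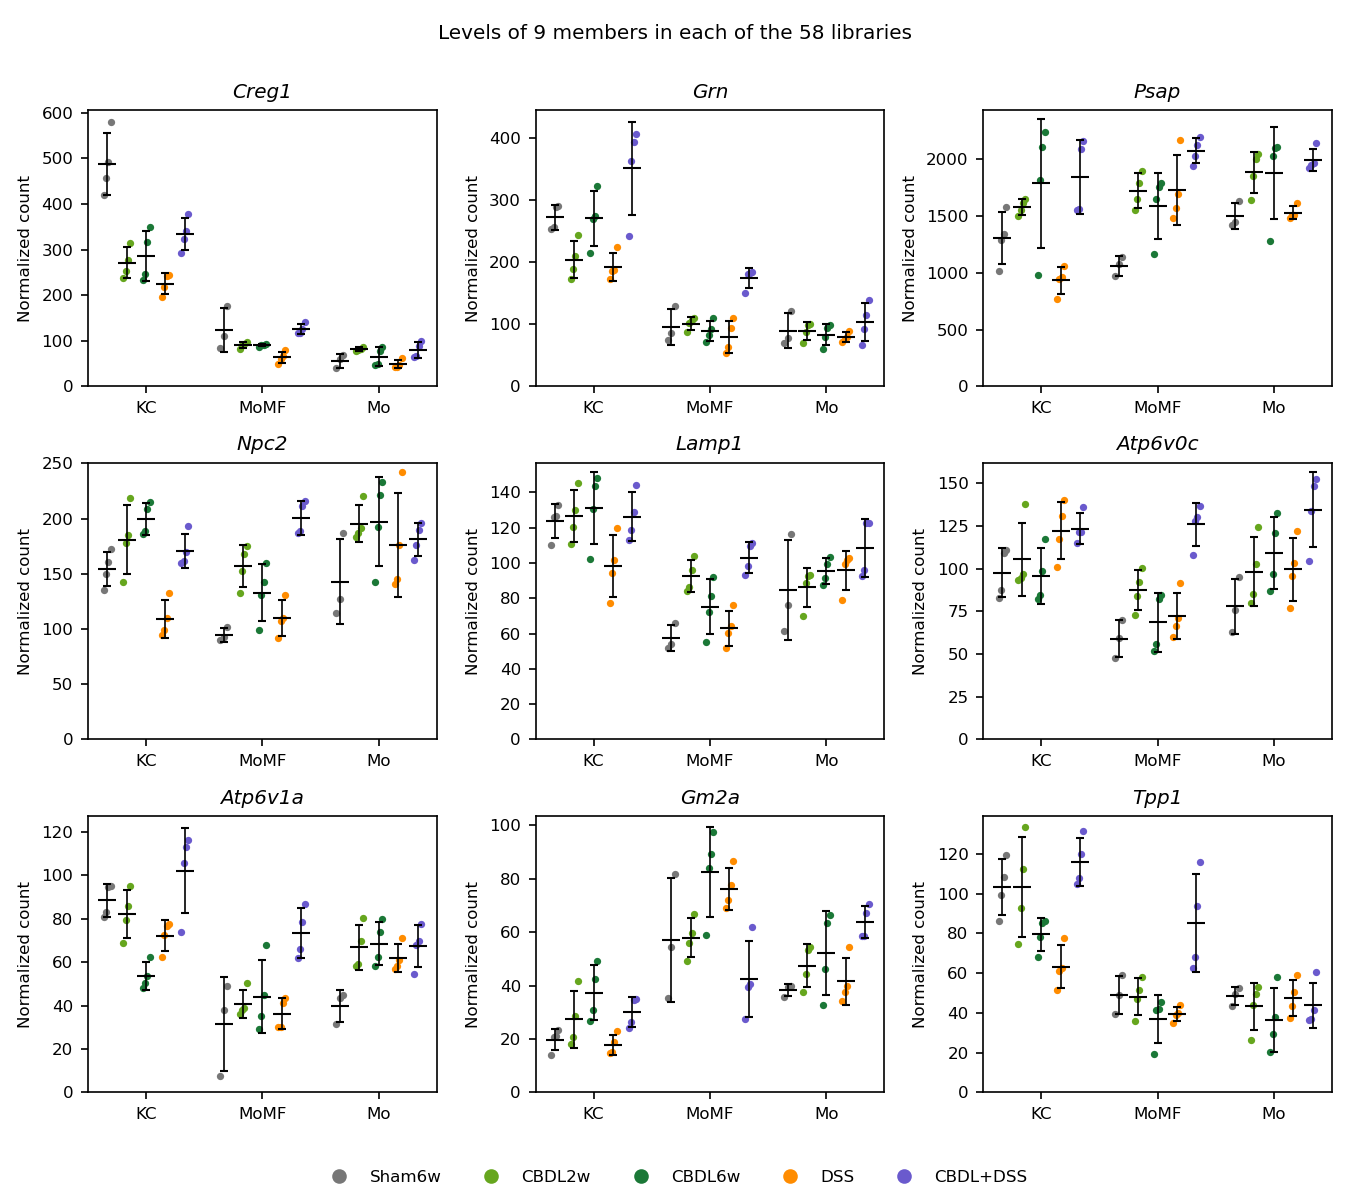
Normalized counts of 9 members (panels: Creg1, Grn, Psap, Npc2, Lamp1, Atp6v0c, Atp6v1a, Gm2a and Tpp1) in the 58 libraries, by cell type and injury group; points are libraries and bars the mean ± SD. Creg1 is highest in KC of Sham6w, and Atp6v0c, Npc2 and Psap in MoMF of CBDL+DSS lie above the Sham6w MoMF libraries.

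In monocytes few members passed the test. Atp6v1a was higher in each of the ligated groups, Atp6v0c in CBDL+DSS, and Scarb2, the membrane receptor that sorts glucocerebrosidase, was lower at CBDL6w. At CBDL2w, 1 of 39 members rose (8.05% of the 6112 genes tested) and none fell (5.71%). At CBDL6w, 1 rose (5.87%) and 1 fell (5.33%). In CBDL+DSS, 2 rose (7.00%) and none fell (6.07%). In DSS none rose (1.05%) or fell (0.540%) by limma, edgeR or DESeq2, with 4 at an unadjusted p under 0.05. In CBDL+DSS 4 passed with equal totals and 5 with edgeR or DESeq2. The medians of the members were 0.07, -0.08, 0.26 and -0.01 at CBDL2w, CBDL6w, CBDL+DSS and DSS, beside -0.10, -0.11, -0.07 and -0.03 over all genes. The number that passed at CBDL2w became 0 without Sham6w replicate 1+2+5 and 2 without CBDL6w replicate 3 or Sham6w replicate 4, and at CBDL6w 1 without CBDL6w replicate 2 or Sham6w replicate 1+2+5 or 3+6. In CBDL+DSS it became 0 without Sham6w replicate 1+2+5, 1 without Sham6w replicate 3+6 or CBDL+DSS replicate 2 or 6 and 4 without CBDL2w replicate 1, and in DSS 1 without CBDL+DSS replicate 4+5.

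Atp6v1a stood at 31.5, 43.5 and 44.8 normalized counts in the 3 Sham6w Mo libraries, 58.3, 59.0, 69.7 and 80.2 at CBDL2w, 58.1, 62.5, 73.7 and 79.7 at CBDL6w and 54.6, 67.9, 69.6 and 77.7 in CBDL+DSS. Each ligated group lay wholly above the controls. The rises were 0.73 ± 0.20 (adjusted p = 0.0158), 0.77 ± 0.20 (adjusted p = 0.0141) and 0.75 ± 0.20 (adjusted p = 0.0178). DSS stood at 56.99, 58.1, 61.1 and 71.2, also above the controls, but did not pass (0.63 ± 0.20, adjusted p = 0.0909). The CBDL2w call ended with no filter on low values and single replicate numbers only (adjusted p 0.101 to 0.41) and without Mo Sham6w replicate 1+2+5 or Mo CBDL2w replicate 2 (adjusted p 0.0553 to 0.105). The CBDL6w call ended with no filter on low values and single replicate numbers only (adjusted p 0.0873 to 0.403) and without Mo Sham6w replicate 1+2+5 (adjusted p 0.0906), and the CBDL+DSS call with no filter on low values and single replicate numbers only (adjusted p 0.0988 to 0.441) and without Mo Sham6w replicate 1+2+5 or Mo CBDL+DSS replicate 6 (adjusted p 0.055 to 0.0993).

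Atp6v0c stood at 63.0, 76.1 and 95.1 normalized counts in Sham6w Mo and 104, 134, 148 and 152 in CBDL+DSS, without overlap (0.78 ± 0.21, adjusted p = 0.02), and its call ended with no filter on low values and single replicate numbers only (adjusted p 0.0527 to 0.421) and without Mo Sham6w replicate 1+2+5 or 3+6 or Mo CBDL+DSS replicate 2 (adjusted p 0.0565 to 0.102). Scarb2 stood at 19.7, 21.3 and 25.4 in Sham6w and 6.25, 8.64, 8.84 and 11.6 at CBDL6w, also without overlap (-1.25 ± 0.34, adjusted p = 0.0193), and its call ended with no filter on low values and single replicate numbers only (adjusted p 0.081 to 0.311) and without Mo CBDL6w replicate 2 or Mo Sham6w replicate 3+6 (adjusted p 0.0565 to 0.0876). The endothelial markers held 0.231 to 0.418% of the reads in Sham6w Mo and 0.0132 to 0.0186, 0.00971 to 0.0310 and 0.0200 to 0.0307% at CBDL2w, CBDL6w and CBDL+DSS. In DSS, where no member passed, they held 0.162 to 0.320%. Siglech, from a list of lymphocyte markers, had mean normalized counts of 73.18 in Sham6w Mo and 49.49 in DSS. Its means were 1.623, 2.308 and 1.708 at CBDL2w, CBDL6w and CBDL+DSS. The 8 neutrophil markers held 0.0194 to 0.212% in Sham6w Mo. The part of these markers in the Atp6v1a, Atp6v0c and Scarb2 changes was not tested. CBDL2w and CBDL6w differed in no member by limma, edgeR or DESeq2 (2 at an unadjusted p under 0.05), where 0.00% of genes were higher and 0.00% lower. CBDL+DSS and CBDL6w differed in none by limma or edgeR (4 at an unadjusted p under 0.05, and 1 by DESeq2), where 0.295% were higher and 0.278% lower.

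The effect of colitis after ligation was compared with its effect without ligation, as CBDL+DSS minus CBDL6w, less DSS minus Sham6w. Each of these differences may also hold time, which is not given for DSS and CBDL+DSS. In KC, 7 of 41 members passed with a more positive effect of colitis in ligated mice (3.75% of genes) and none with a more negative one (2.27%). They were Creg1, Grn, Tpp1, Pld3, Asah1, Scarb2 and Atp6v1a. The median difference was 0.55 over the members and 0.14 over all genes. In MoMF, 3 passed upward (1.20%) and 2 downward (0.888%), and these 5 became 1 without Sham6w replicate 4+6 or CBDL+DSS replicate 1 or 2, 2 without CBDL6w replicate 1, CBDL2w replicate 2, DSS replicate 1 or 5+6 or CBDL+DSS replicate 4+5 and 3 without CBDL6w replicate 3 or 4, Sham6w replicate 3, CBDL2w replicate 1, 3 or 4, DSS replicate 3 or CBDL+DSS replicate 3. In Mo none passed upward (0.115%) or downward (0.196%) by limma, edgeR or DESeq2, with 5 at an unadjusted p under 0.05.

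Creg1 in KC fell with colitis in unligated mice and stood at 233, 246, 316 and 349 normalized counts at CBDL6w and 293, 323, 340.3 and 378 in CBDL+DSS; the effects differed by 1.34 ± 0.21 (adjusted p = 0.000834). Tpp1 followed the same course, with 68.1, 78.0, 85.2 and 86.4 at CBDL6w and 105, 108, 119.8 and 131 in CBDL+DSS (difference 1.24 ± 0.26, adjusted p = 0.00673). For Pld3 the values were 20.6, 22.4, 22.5 and 38.4 and 36.5, 39.0, 54.0 and 62.7 (difference 1.79 ± 0.40, adjusted p = 0.0112). In all 3, DSS lay below Sham6w while the mean in CBDL+DSS lay above that in CBDL6w. The CBDL+DSS and CBDL6w libraries of Creg1 and Pld3 overlapped, and those of Tpp1 did not. Atp6v1a stood at 62.2, 72.4, 76.9 and 77.5 in DSS and differed by 1.19 ± 0.24 (adjusted p = 0.0056). None of these 4 differences lost its call in an alternative or without a library.

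Grn stood at 254, 257, 289.9 and 290.5 normalized counts in Sham6w KC, 173, 186, 188 and 224 in DSS, 215, 271, 275 and 322 at CBDL6w and 242, 364, 394 and 407 in CBDL+DSS. All DSS libraries lay below Sham6w, and CBDL+DSS overlapped CBDL6w. The effects differed by 0.86 ± 0.24 (adjusted p = 0.0326), a call that ended with no filter on low values and equal totals (adjusted p 0.0544 to 0.0845) and without any of 9 of the 20 libraries in turn (adjusted p 0.052 to 0.0673). Scarb2 stood at 31.9, 36.5, 38.7 and 40.0, 19.7, 21.3, 25.8 and 29.3, 13.4, 25.1, 27.8 and 30.9 and 36.9, 41.8, 49.7 and 62.3 in the same order (difference 1.58 ± 0.36, adjusted p = 0.0132), and its call ended with no filter on low values (adjusted p 0.055). Asah1 stood at 21.3, 44.8, 48.6 and 50.9, 21.1, 21.3, 24.8 and 26.8, 17.9, 26.9, 30.9 and 35.7 and 32.0, 44.0, 46.0 and 51.3 (difference 1.37 ± 0.41, adjusted p = 0.0481), a call that ended with no filter on low values, equal totals, a replicate block and single replicate numbers only (adjusted p 0.0526 to 0.162) and without any of 16 of the 20 libraries in turn (adjusted p 0.0515 to 0.101). Markers moved in the same contrast: 4 of 8 Kupffer cell markers and 3 of 7 tissue macrophage markers passed upward and 2 of 5 tested monocyte markers downward. Their part in the 7 differences was not tested.

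In MoMF the difference was positive for Creg1 (1.35 ± 0.31, adjusted p = 0.0222), which stood at 86.7, 91.0, 91.0 and 93.5 normalized counts at CBDL6w and 116, 118, 127 and 141 in CBDL+DSS. The latter lay above all CBDL6w libraries, where DSS lay below all Sham6w libraries. The Creg1 call ended with no filter on low values and single replicate numbers only (adjusted p 0.0733 to 0.0957) and without MoMF Sham6w replicate 4+6 or MoMF CBDL+DSS replicate 2 (adjusted p 0.0526 to 0.0641). Atp6v0b, a V0 subunit, stood at 43.5, 46.1 and 91.6 in Sham6w, 6.18, 22.7, 27.2 and 48.8 in DSS, 13.6, 15.2, 37.8 and 43.9 at CBDL6w and 40.4, 57.6, 64.8 and 66.5 in CBDL+DSS (difference 2.57 ± 0.68, adjusted p = 0.0493). Both pairs of groups overlapped, and the call ended with no filter on low values, equal totals, edgeR and single replicate numbers only (adjusted p 0.0515 to 0.29) and without any of 16 of the 19 libraries in turn (adjusted p 0.052 to 0.1). Gm2a stood at 35.4, 54.3 and 81.7 in Sham6w and 68.9, 71.9, 77.6 and 86.5 in DSS, against a lower level in CBDL+DSS than at CBDL6w (difference -1.46 ± 0.39, adjusted p = 0.0499). Its call ended with no filter on low values and single replicate numbers only (adjusted p 0.15 to 0.158) and without any of 16 of the 19 libraries in turn (adjusted p 0.0556 to 0.121). Pld3 and Tfeb differed by 3.40 ± 0.86 (adjusted p = 0.0404) and -4.59 ± 1.10 (adjusted p = 0.0288) at low counts: Tfeb stood at 0, 1.09 and 2.95, 2.84, 6.65, 7.95 and 19.4, 2.84, 4.79, 13.6 and 13.7 and 0, 0, 0 and 3.54 in Sham6w, DSS, CBDL6w and CBDL+DSS, and Pld3 between 0 and 35.8. The Pld3 call ended with no filter on low values and single replicate numbers only (adjusted p 0.0549 to 0.294) and without MoMF CBDL6w replicate 1 or 3 or MoMF Sham6w replicate 4+6 or MoMF CBDL2w replicate 2 or MoMF CBDL+DSS replicate 1, 2 or 4+5 or MoMF DSS replicate 5+6 (adjusted p 0.0507 to 0.0846), and the Tfeb call with single replicate numbers only (adjusted p 0.212) and without MoMF CBDL6w replicate 1 or MoMF Sham6w replicate 1+2+5 or MoMF DSS replicate 1 or 5+6 or MoMF CBDL+DSS replicate 1, 3 or 4+5 (adjusted p 0.0522 to 0.0694).

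**Figure D3:**
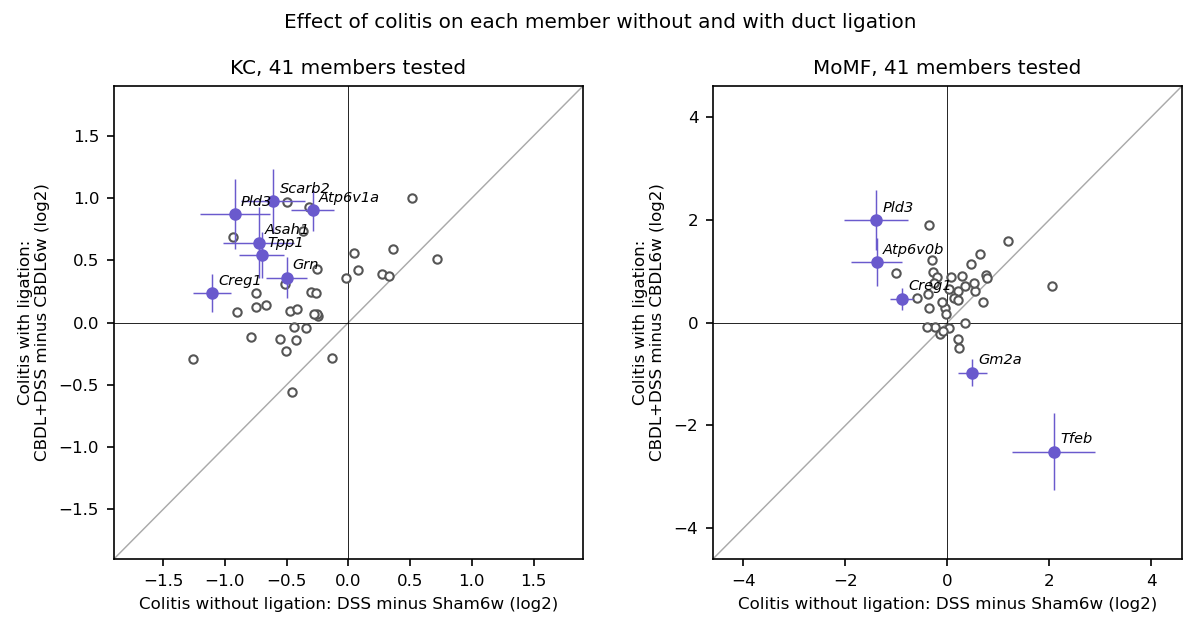
Log2 difference DSS minus Sham6w (x axis) against CBDL+DSS minus CBDL6w (y axis) for each tested member in KC and in MoMF; bars are SE, the line marks equal effects and filled points are members whose 2 effects differed at an adjusted p under 0.05. The 7 filled points of KC lie above the line, and those of MoMF are 3 above and 2 below it.

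Across cell types, Kupffer cells had higher levels of more than 20 lysosomal genes than either other type. In Sham6w, 16 of 43 members tested were higher in KC than in MoMF (9.11% of the 7555 genes) and 1 was lower (6.83%). Against Mo, 12 were higher (7.48%) and 2 lower (8.54%). MoMF exceeded Mo in 1 member (1.95%) and lay below in 1 (4.21%). Averaged over the 5 groups, 28 were higher in KC than in MoMF (18.0%) and 2 lower (14.5%), and 24 were higher than in Mo (21.6%) and 3 lower (19.6%). MoMF exceeded Mo in 5 (6.71%) and lay below in 5 (7.94%). The medians over the 5 groups were 0.43, 0.40 and -0.03 for the members, beside 0.05, 0.06 and -0.01 for all genes. In Sham6w, KC and Mo differed in 8 without Mo Sham6w replicate 1+2+5, and MoMF and Mo in 4 without MoMF Sham6w replicate 4+6.

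Creg1 in Sham6w stood at 421, 458, 493 and 579 normalized counts in KC, 84.2, 111 and 177 in MoMF and 39.8, 60.4 and 69.5 in Mo. The 3 types did not overlap. It was higher in KC than in MoMF (2.03 ± 0.21, adjusted p = 2.26e-10) and than in Mo (3.11 ± 0.21, adjusted p = 4.17e-17), and higher in MoMF than in Mo (1.09 ± 0.22, adjusted p = 0.00105). The last call ended with single replicate numbers only (adjusted p 0.356). Over the 5 groups the differences were 1.69 ± 0.09, 2.24 ± 0.09 and 0.56 ± 0.09 in the same order. Grn in Sham6w stood at 254, 257, 289.9 and 290.5 in KC, 74.3, 85.4 and 129 in MoMF and 69.4, 78.7 and 122 in Mo, with KC above both. Over the 5 groups it was higher in KC by 1.28 ± 0.09 (adjusted p = 2.43e-16) against MoMF and by 1.51 ± 0.09 (adjusted p = 8.03e-20) against Mo.

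Among lipid genes all 4 tested were higher in KC than in MoMF over the 5 groups, and 2 of 4 than in Mo. Lipa in Sham6w stood at 56.4, 62.5, 73.4 and 109.5 normalized counts in KC, 12.4, 23.9 and 38.3 in MoMF and 11.8, 14.5 and 16.8 in Mo, and over the groups KC was higher by 0.99 ± 0.16 and 1.66 ± 0.16. KC lay above both other types in every Sham6w library. Of the glycosidases, 5 of 6 were higher in KC than in MoMF and 5 of 6 than in Mo, among them Hexa (0.89 ± 0.14 and 0.85 ± 0.14) and the neuraminidase Neu1 (0.89 ± 0.19 and 0.91 ± 0.19). Gla, the alpha-galactosidase, was lower in KC than in Mo (-0.89 ± 0.27, adjusted p = 0.00502). Tpp1 (0.89 ± 0.11 and 1.07 ± 0.11) and Pld3 (1.16 ± 0.21 and 1.76 ± 0.21) were higher in KC against both types, and the thioesterase Ppt1 passed against neither.

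Of the pump, 3 of 6 tested V0 subunits, 5 of 8 V1 subunits and 1 of 2 accessory proteins were higher in KC than in MoMF over the 5 groups, and 3, 4 and 1 were higher than in Mo. None was lower in KC. Atp6v1a in Sham6w stood at 80.9, 83.1, 94.6 and 95.3 normalized counts in KC, 7.43, 38.0 and 49.1 in MoMF and 31.5, 43.5 and 44.8 in Mo, with no overlap between KC and either. Over the groups KC was higher by 0.92 ± 0.12 and 0.38 ± 0.12, and the difference of MoMF from Mo was -0.54 ± 0.12 (adjusted p = 0.00137). The regulatory B subunit Atp6v1b2 differed by 0.67 ± 0.09 and 0.41 ± 0.09, and Atp6v0b by 0.76 ± 0.18 and 0.73 ± 0.18. Atp6v0c was higher in KC than in MoMF (0.44 ± 0.09) and lower in MoMF than in Mo (-0.35 ± 0.09). The call of Atp6v0e ended with no filter on low values, equal totals and single replicate numbers only (adjusted p 0.0907 to 0.227) and without any of 20 of the 58 libraries in turn (adjusted p 0.0536 to 0.11) against MoMF, and with no filter on low values, equal totals and single replicate numbers only (adjusted p 0.0546 to 0.121) and without any of 22 of the 58 libraries in turn (adjusted p 0.0516 to 0.0884) against Mo.

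Of 7 membrane proteins, 5 were higher in KC than in MoMF and 5 than in Mo. Cd68, a glycoprotein of macrophage endosomes and lysosomes, stood at 75.8, 80.4, 90.5 and 92.1 normalized counts in Sham6w KC, 22.3, 36.3 and 38.0 in MoMF and 30.2, 30.2 and 32.8 in Mo, and over the groups KC was higher by 0.63 ± 0.11 and 0.90 ± 0.11. Lamp1 differed by 0.65 ± 0.08 and 0.37 ± 0.08. Lamp2 was lower in MoMF than in Mo (-0.44 ± 0.09, adjusted p = 0.000527), and in Sham6w (-1.01 ± 0.23, adjusted p = 0.00446), where the call ended with single replicate numbers only (adjusted p 0.422). Laptm5, a lysosomal protein of blood cells, was lower in KC than in MoMF (-0.21 ± 0.08, adjusted p = 0.0316) and higher in MoMF than in Mo (0.29 ± 0.08, adjusted p = 0.00924). The first of these calls ended with no filter on low values and single replicate numbers only (adjusted p 0.0903 to 0.462) and without MoMF Sham6w replicate 1+2+5 or KC CBDL2w replicate 2 or MoMF CBDL2w replicate 3 or MoMF DSS replicate 1 (adjusted p 0.0518 to 0.0996), and the second with single replicate numbers only (adjusted p 0.647).

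Gm2a ran the other way from most members. It stood at 13.9, 20.6, 21.3 and 23.2 normalized counts in Sham6w KC, 35.4, 54.3 and 81.7 in MoMF and 35.8, 39.4 and 39.8 in Mo, with all KC libraries below both other types. Over the 5 groups KC was lower than MoMF (-1.24 ± 0.11, adjusted p = 4.28e-13) and than Mo (-0.90 ± 0.11, adjusted p = 2.98e-09). MoMF was higher than Mo by 0.34 ± 0.12 (adjusted p = 0.0379), a call that ended with no filter on low values and single replicate numbers only (adjusted p 0.12 to 0.145) and without any of 14 of the 58 libraries in turn (adjusted p 0.0503 to 0.0943). Psap was lower in KC than in Mo (-0.28 ± 0.07, adjusted p = 0.00154) and differed from MoMF by -0.16 ± 0.07 (adjusted p = 0.103). Npc2 was higher in KC than in MoMF (0.25 ± 0.07) and lower in MoMF than in Mo (-0.39 ± 0.08), and Lipa was higher in MoMF than in Mo (0.67 ± 0.16). Tfe3 was higher in KC than in MoMF (0.66 ± 0.21, adjusted p = 0.0112), a call that ended with single replicate numbers only (adjusted p 0.0736), and Mitf and Tfeb passed in none of these 3 comparisons. The calls over the 5 groups named here without such a remark were kept in each alternative and without each library. Beside these differences, 10 of 10 tested genes of the response to tissue dissociation were lower in KC than in MoMF and than in Mo. The part of dissociation in the member differences was not tested.

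**Figure D4:**
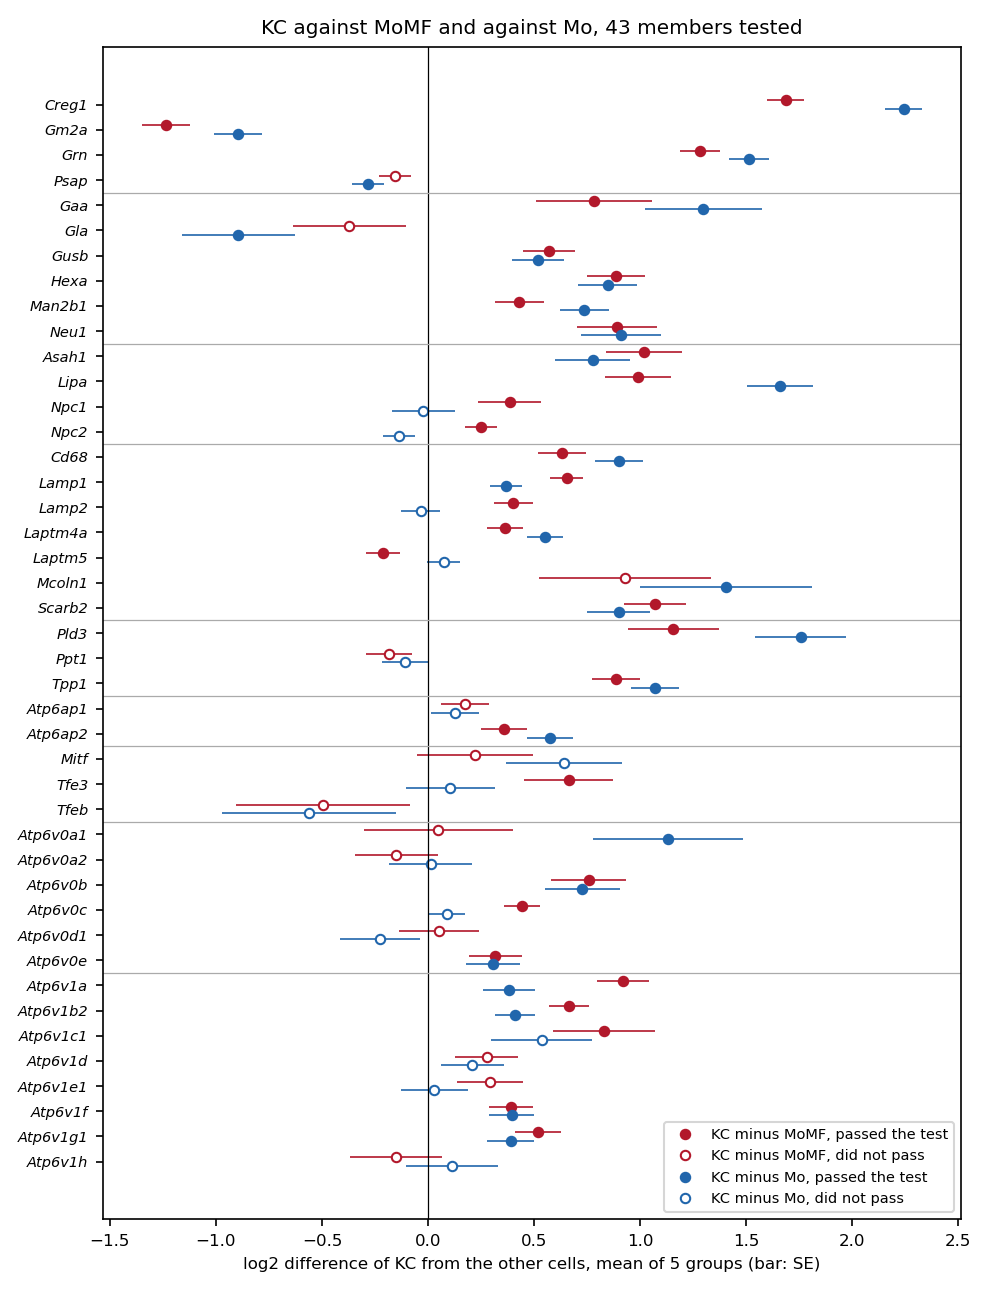
Log2 difference of KC from MoMF and of KC from Mo, averaged over the 5 injury groups, for the 43 tested members; bars are SE and filled points passed at an adjusted p under 0.05. Against MoMF 28 filled points lie above 0 and 2, Gm2a and Laptm5, below it.

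The response to each injury was then tested for a difference between the 3 cell types (an F test on 2 degrees of freedom over all 58 libraries). The log2 differences beside each test are those of the fits within a cell type. At CBDL2w, 2 of 43 members differed (2.01% of genes), Creg1 (adjusted p = 0.00449) and Tfe3 (adjusted p = 0.0204). The difference from Sham6w for Creg1 was -0.84 ± 0.15 in KC, -0.38 ± 0.23 in MoMF and 0.56 ± 0.25 in Mo. That of Tfe3 was -0.97 ± 0.39, 2.03 ± 0.48 and 0.70 ± 0.51. The Creg1 call ended with single replicate numbers only (adjusted p 0.098) and without Mo Sham6w replicate 3+6 (adjusted p 0.0563), and that of Tfe3 with edgeR and single replicate numbers only (adjusted p 0.0541 to 0.382) and without MoMF Sham6w replicate 1+2+5 or KC CBDL2w replicate 1 (adjusted p 0.0729 to 0.0834). At CBDL6w 1 member differed (1.83%), Atp6v1a (adjusted p = 0.0286), with -0.72 ± 0.17 in KC, 0.76 ± 0.42 in MoMF and 0.77 ± 0.20 in Mo. Its call ended with single replicate numbers only (adjusted p 0.135) and without KC CBDL6w replicate 1 or 4 or Mo Sham6w replicate 1+2+5 or KC Sham6w replicate 3 or 4 (adjusted p 0.0512 to 0.056). In DSS 1 differed (0.874%), Psap (adjusted p = 0.0244), with -0.47 ± 0.20 in KC, where the libraries stood at 1013, 1290, 1345 and 1578 in Sham6w and 774, 945, 963 and 1061 in DSS, 0.69 ± 0.17 in MoMF and 0.03 ± 0.14 in Mo. That call ended with single replicate numbers only (adjusted p 0.25) and without MoMF Sham6w replicate 1+2+5 or KC DSS replicate 2 or MoMF DSS replicate 5+6 (adjusted p 0.054 to 0.058). The number that differed at CBDL2w was 1 without MoMF Sham6w replicate 1+2+5 or Mo Sham6w replicate 3+6. At CBDL6w it was 0 without KC CBDL6w replicate 1 or 4, Mo Sham6w replicate 1+2+5 or KC Sham6w replicate 3 or 4, 2 without MoMF CBDL6w replicate 3, MoMF Sham6w replicate 3 or Mo CBDL2w replicate 2 and 3 without MoMF Sham6w replicate 4+6, and in DSS 0 without MoMF Sham6w replicate 1+2+5, KC DSS replicate 2 or MoMF DSS replicate 5+6.

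In CBDL+DSS 4 of 43 members differed between cell types (3.75% of genes). For Hexa (adjusted p = 0.0134) the difference from Sham6w was -0.26 ± 0.26 in KC, 1.63 ± 0.38 in MoMF and 0.10 ± 0.35 in Mo. For Lamp2 (adjusted p = 0.0293) it was -0.17 ± 0.19, 0.99 ± 0.28 and 0.00 ± 0.21 in that order. For Npc2 (adjusted p = 0.0381) it was 0.15 ± 0.15, 1.07 ± 0.20 and 0.37 ± 0.21, and for Cd68 (adjusted p = 0.0412) -0.57 ± 0.23, 0.82 ± 0.31 and 0.35 ± 0.28. For each of the 4 the estimate was highest in MoMF. The 4 became 1 without MoMF CBDL+DSS replicate 3 and 2 without MoMF Sham6w replicate 1+2+5, KC Sham6w replicate 4, KC CBDL+DSS replicate 2 or 4+5 or MoMF CBDL+DSS replicate 2. The Hexa call ended with single replicate numbers only (adjusted p 0.63) and without MoMF Sham6w replicate 1+2+5 (adjusted p 0.107), that of Lamp2 with no filter on low values and single replicate numbers only (adjusted p 0.0861 to 0.423) and without MoMF Sham6w replicate 3 or 4+6 or MoMF CBDL+DSS replicate 3 (adjusted p 0.0562 to 0.0967), that of Npc2 with no filter on low values, equal totals and single replicate numbers only (adjusted p 0.0553 to 0.217) and without any of 11 of the 58 libraries in turn (adjusted p 0.0501 to 0.077) and that of Cd68 with no filter on low values, equal totals, edgeR and single replicate numbers only (adjusted p 0.0526 to 0.541) and without any of 12 of the 58 libraries in turn (adjusted p 0.0509 to 0.117).

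Other genes of the pathway, from lists held beside the members, were counted by the same test. In DSS KC, 3 of 18 tested further hydrolases fell, led by the acid phosphatase Acp5 and Plbd2, 1 of 15 further membrane proteins (Pip4p1) and 5 of 12 cathepsins and their partners, and none of these rose, where 4.55% of all genes fell and 3.34% rose. None of 11 autophagy genes passed. For the difference in the colitis effect in KC, 3 of 18 hydrolases (Acp5, Plbd2 and Dnase2a) and 5 of 12 cathepsins and partners passed upward, where 3.75% of genes did. In CBDL+DSS MoMF, 8 of 10 cathepsins and partners were higher than in Sham6w, with 1 of 12 membrane proteins (Tcirg1, a pump subunit whose symbol lies outside the Atp6v names), 1 of 9 nutrient-sensing genes (Flcn) and 1 of 8 genes of mannose 6-phosphate sorting (M6pr), where 4.61% of genes were higher. None of 10 autophagy genes passed.

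Between KC and MoMF over the 5 groups, 11 of 19 further hydrolases were higher in KC and 2 lower, 6 of 16 membrane proteins were higher, 3 of 10 nutrient-sensing genes were higher and 1 lower, and 10 of 12 cathepsins and partners were higher and 1 lower. Of autophagy genes 1 of 13 was higher. Of all genes 18.0% were higher and 14.5% lower. For KC against Mo the counts higher were 13 of 19 hydrolases, 6 of 16 membrane proteins, 3 of 10 nutrient-sensing genes, 2 of 13 autophagy genes, 2 of 10 sorting genes, 4 of 7 fusion genes and 9 of 12 cathepsins and partners. Of all genes 21.6% were higher and 19.6% lower. The counts lower in these lists are not given here, so the counts higher show 1 direction only.

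Members below the level for testing in every fit were Glb1, Naglu, Atp6v0a4, Atp6v0d2, Atp6v0e2 and Atp6v1g2. Atp6v0d1 was not tested within any cell type, Gaa in MoMF and Mo, Tfeb in KC, and Mcoln1 and Atp6v0a1 in Mo. Atp6v0d2, a V0 subunit known from osteoclasts and macrophages, stood at 0, 1.27, 1.72 and 1.74 normalized counts at CBDL2w KC and 0, 0, 0.697 and 0.831 in CBDL+DSS KC, and at 0, 0, 0 and 0 in Sham6w KC. Its values in CBDL+DSS MoMF were 0, 0, 0 and 6.03. Atp6v0a4, a V0 subunit known from kidney, was at 0 in each KC and Mo library. Tfeb in KC stood at 0, 0, 4.15 and 4.26 in Sham6w and 0, 0, 4.48 and 27.8 at CBDL6w, too low for a comparison. Mitf passed in no comparison and stood at 13.3, 13.8, 21.8 and 27.8 in Sham6w KC and 15.5, 15.8, 30.4 and 32.8 in CBDL+DSS KC, with overlap. Lamp1 did not pass in any KC comparison of injury with Sham6w, with 110.2, 126, 127 and 133 in Sham6w and 77.4, 94.2, 102 and 120.1 in DSS. Genes on the opposite strand overlap Grn, Lamp1, Hexa, Ppt1, Scarb2, Mitf, Npc1, Atp6v0a2, Atp6v0a4, Atp6v0b, Atp6v1b2, Atp6v1e1, Atp6v1g2 and Atp6v1h, and whether counting used strand is not given in the sources used here.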

How the data were processed

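RNA of 58 libraries from Kupffer cells, monocyte-derived macrophages and monocytes was made with a 3′ tag kit with unique molecular identifiers (QuantSeq FWD, Lexogen), per the labels' protocols. Per the submitters' processing notes, the tools were STAR 2.7.5b, RSEM 1.3.1, UMI-tools 1.0.1, Trimmomatic 0.39 and DESeq2, on the build GRCm38.p6. The authors deposited 1 table of normalized counts (a signal per gene and library). Within a library the values were whole multiples of 1 constant within 0.01 (100.0% of values), so whole reads were recovered with size factors of 0.4038 to 1.6754. Of 25307 gene IDs, 25272 matched GENCODE M21 symbols and 35 did not. A 3′ tag count does not scale with length, so genes are not ranked against each other.

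Genes that reached 10 normalized counts in 3 or more libraries were tested on log2(normalized count + 1) with limma 3.58.1 (trend, robust; R 4.3.3), in 1 fit per cell type over its 5 groups and 1 fit over all libraries for cell types. P-values were adjusted by Benjamini-Hochberg over all genes of a fit. Fold changes of low genes are understated on this scale. Alternatives used edgeR 4.0.16 and DESeq2 1.42.0 on recovered reads, and the tests were checked on simulated data. Of 84 pairs of libraries within groups, 0 were identical. The members and lists were chosen with earlier results of these data known. Named members are 12 chosen genes and, per comparison, up to 4 called members a direction with the largest change, where the higher group's mean reached 50. Other members, such as Gusb, Pld3, Hexa, Asah1 and Scarb2, were named after their values were seen.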

Additional observations from a re-analysis of the deposited data

Results flagged for a closer look

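Single libraries stood far from the others of their group in 11 of 200 sets of 4 libraries over 17 members (5.5%), by Dixon's test, in which chance gives about 5%. Sets with all values under 10 (21) were not tested. Normalized counts of Atp6v0b were 64.8 in KC CBDL6w replicate 1 and 105.4 in KC Sham6w replicate 4. Atp6v0c was 137.6 in KC CBDL2w replicate 4. Grn was 150.7 in MoMF CBDL+DSS replicate 3, the library in which Lamp2 was 92.0. Lamp1 was 79.0 in Mo DSS replicate 4. Mitf was 46.8 in MoMF CBDL2w replicate 4 and 4.14 in Mo CBDL6w replicate 3, where Psap was 1279. Tfeb was 27.8 in KC CBDL6w replicate 1, and Tpp1 was 19.2 in MoMF CBDL6w replicate 3.

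The effect of colitis differed between ligated and unligated mice (ligated minus unligated, log2) in KC by 1.34 for Creg1, 0.86 for Grn, 1.37 for Asah1, 1.58 for Scarb2, 1.79 for Pld3, 1.24 for Tpp1 and 1.19 for Atp6v1a. In MoMF the differences were 1.35 for Creg1, -1.46 for Gm2a, 3.40 for Pld3, -4.59 for Tfeb and 2.57 for Atp6v0b. Responses that differed between the 3 cell types had limma adjusted p-values of 0.00449 (Creg1) and 0.0204 (Tfe3) at CBDL2w, 0.0286 (Atp6v1a) at CBDL6w, 0.0244 (Psap) in DSS, and 0.0134 (Hexa), 0.0381 (Npc2), 0.0412 (Cd68) and 0.0293 (Lamp2) in CBDL+DSS.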

How the results depend on the processing

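Of 161 member calls, 81 were kept in each of the 7 alternatives and without each library, 77 were lost in at least 1 alternative and 64 without at least 1 library, and none was reversed. Most losses came with single replicate numbers only (66 lost, 103 calls in all; fewer libraries) and with no filter on low values (46 lost, 120 in all; more genes tested). Equal totals lost 13 (154 in all), edgeR 11 (160), pseudocount 5 lost 3 (172) and DESeq2 3 (190). Counts of members that passed moved by more than 1.5 times in 43 of these settings and stayed within it in 174. Replicate numbers were not taken to pair the samples, since the labels do not say so. Same-numbered libraries correlated in their deviations by -0.060 to 0.077 within a cell type (72 pairs, 0 over 0.1). Within an injury group they correlated by -0.086 to 0.122 (45 pairs, 2 over 0.1). A library correlated best with its own number in 19 of the former pairs and 29 of the latter. The number given by chance was not computed. The tests between cell types may therefore leave out a pairing within injury groups, for which the replicate block (correlation 0.046 over all libraries) allows. The replicate block lost 3 calls (163 in all). At these read totals, 6 members were too low to test in any fit. The cause of the other moves was not tested.

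In KC, CBDL2w against Sham6w passed 2 members, and 1 with no filter, 1 to 2 without 1 library. CBDL6w against Sham6w passed 2 members, and 1 with no filter, 1 to 3 without 1 library. DSS against Sham6w passed 6 members, and 2 with no filter, 3 with edgeR, 1 to 9 without 1 library. CBDL+DSS against Sham6w passed 3 members, and 1 with no filter, 1 to 4 without 1 library. CBDL+DSS against CBDL6w passed 1 member, and 2 with pseudocount 5, equal totals and edgeR, 0 with no filter, 3 with DESeq2, 1 to 2 without 1 library. The difference in colitis effect passed 7 members, and 4 with no filter. In MoMF, CBDL2w against Sham6w passed 3 members, and 5 with DESeq2, 0 with single numbers, 0 to 3 without 1 library. CBDL6w against Sham6w passed 0 members, and 1 with DESeq2, 0 to 1 without 1 library. DSS against Sham6w passed 3 members, and 0 with single numbers, 0 to 3 without 1 library. CBDL+DSS against Sham6w passed 11 members, and 4 with single numbers, 6 to 11 without 1 library. CBDL+DSS against CBDL6w passed 5 members, and 8 with pseudocount 5, 1 with no filter, 11 with DESeq2, 1 to 10 without 1 library. The difference in colitis effect passed 5 members, and 1 with no filter and single numbers, 1 to 6 without 1 library. In Mo, CBDL2w against Sham6w passed 1 member, and 0 with no filter and single numbers, 0 to 2 without 1 library. CBDL6w against Sham6w passed 2 members, and 0 with no filter and single numbers, 1 to 3 without 1 library. DSS against Sham6w passed 0 members, and 0 to 1 without 1 library. CBDL+DSS against Sham6w passed 2 members, and 1 with no filter, 4 with equal totals, 5 with edgeR and DESeq2, 0 with single numbers, 0 to 4 without 1 library. CBDL+DSS against CBDL6w passed 0 members, and 1 with DESeq2. Between cell types, KC against MoMF in Sham6w passed 17 members, and 9 with single numbers. KC against Mo in Sham6w passed 14 members, and 5 with single numbers, 8 to 14 without 1 library. MoMF against Mo in Sham6w passed 2 members, and 0 with single numbers, 2 to 4 without 1 library. CBDL2w against Sham6w compared over cell types passed 2 members, and 1 with edgeR, 0 with single numbers, 1 to 3 without 1 library. CBDL6w against Sham6w compared over cell types passed 1 member, and 2 with DESeq2, 0 with single numbers, 0 to 3 without 1 library. DSS against Sham6w compared over cell types passed 1 member, and 3 with DESeq2, 0 with single numbers, 0 to 1 without 1 library. CBDL+DSS against Sham6w compared over cell types passed 4 members, and 1 with no filter, 2 with equal totals, 0 with single numbers, 1 to 5 without 1 library.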
